A study of Homo sapiens and Mus musculus with 18 samples.

Results

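Late-stage human RA-gastruloids and late-stage mouse gastruloids were compared gene by gene at the RNA level. They account for 4 of the 18 libraries of the series, 2 per species. Genes were matched where a protein-coding gene had a symbol that was unique in its own annotation and identical in the other species apart from case. This gave 15225 genes, of 18694 uniquely named protein-coding genes in the human table and 17424 in the mouse table. Of these, 13576 passed the filter on low counts and were tested. Gene lists covering lineages, HOX clusters, signalling pathways and general metabolism held 562 distinct symbols, of which 550 were matched and 518 were tested.

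The study profiled stem cells and gastruloids of both species at the RNA, protein and phosphosite level, and only polyadenylated RNA was examined here. Human late RA-gastruloids came from the line RUES2-GLR, an embryonic stem cell line that carries fluorescent lineage reporters, and were collected at 120 h. Their cells were pre-treated with the WNT pathway activator CHIR99021 and with retinoic acid (RA), aggregated in medium with CHIR and the ROCK inhibitor Y-27632, and later embedded in dilute Matrigel with RA. Mouse late gastruloids came from the line E14Tg2a, were aggregated from fewer cells in N2B27 medium, received a pulse of CHIR99021 without RA or Matrigel, and were collected at a later hour after aggregation than the human ones. The baselines were primed RUES2-GLR cells and mouse epiblast-like cells (EpiLCs, differentiated in Activin A, bFGF and serum replacement), again with 2 libraries each. Per the methods, mouse gastruloids were seeded from naive ESCs kept with CHIR99021, PD0325901 and LIF, so EpiLCs were not their starting cells. Human gastruloids were induced from the RUES2-GLR line itself, so the baselines were unlike. Early gastruloids of both protocols, sampled at 24 h in human, were used where stated. Species, cell line, protocol and age differed together between the 2 late groups and cannot be told apart. Each species was represented by a single line. Per the methods, both biological replicates of a stage were collected in one batch, so p-values reflect the spread within a batch only.

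Gastruloids are aggregates of pluripotent cells that, after a WNT pulse, break symmetry, elongate and produce derivatives of the germ layers without an embryo. Along the elongating axis, posterior progenitors supply both the neural tube and the presomitic mesoderm, which segments into somites, and HOX genes are switched on in order from the anterior to the posterior end of each cluster. RA is a small signalling molecule, made in the embryo by somites, that promotes neural and somitic differentiation and is broken down by enzymes of the CYP26 family in the posterior progenitors.

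The human late libraries held 19474515 and 8777081 counted reads, and the mouse late libraries 8280237 and 6487157. Matched genes took 93.1% and 92.2% of the reads in human and 94.2% and 93.7% in mouse. Levels are given as TPM, a unit normalized for gene length and depth, that is, reads per base of exon scaled to the same total over the matched genes. At these depths 3 counts on a gene of 2000 bases corresponded to 0.336 and 0.752 TPM in the human libraries and to 0.707 and 0.898 TPM in the mouse ones. The human replicates differed by more than the mouse ones relative to counting noise, with a chi-square per degree of freedom of 14.6 against 1.62. Across the 15225 genes, the correlation of log2(TPM + 1) was 0.994 between the human replicates and 0.995 between the mouse replicates. Between species it lay between 0.793 and 0.795 for the 4 pairs of libraries. Late mouse gastruloids had a Spearman correlation of 0.792 with late human gastruloids, 0.778 with early human gastruloids and 0.733 with primed RUES2-GLR cells. These correlations are across genes, which are not independent replicates, and describe the libraries. Because tissues were sequenced in bulk, fewer cells of a type and less RNA per cell cannot be told apart in any of the values that follow.

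A gene was called when the BH-adjusted p of edgeR's quasi-likelihood test was below 0.05 and the log2 difference exceeded 1 in either direction. This was met widely: 54.3% of the tested genes were called between the late groups, 26.5% as higher in human and 27.8% as higher in mouse. Values without overlap were also common. Both human values lay above both mouse values for 36.7% of the 15225 matched genes, and the reverse held for 46.1%. The median log2 difference over all tested genes was -0.05. Fitted differences are scaled with totals of length-scaled counts and TMM factors, and not to the TPM totals. Over the 7118 genes at 10 TPM or more in both species they lay a median of 0.18 above the log2 ratio of the mean TPM. A small fitted difference can therefore have the opposite sign to the TPM values, as it did for CYP26A1, SOX9, SALL1, MCM3 and EEF2, none of which was called. On the scale of the printed TPM the median over all genes was -0.23, and 43.0% of calls were higher in human against 48.8% as fitted. Against that background, neural progenitor, HOX and segmentation clock lists lay on the human side, and cardiac, endodermal, lateral plate and pluripotency lists lay on the mouse side. Among the neural progenitor genes 15 of 20 tested were higher in human and 2 in mouse. For the cardiac list the counts were 1 and 20 of 25, and for the endoderm and notochord list 0 and 21 of 24.

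**Figure D1:**
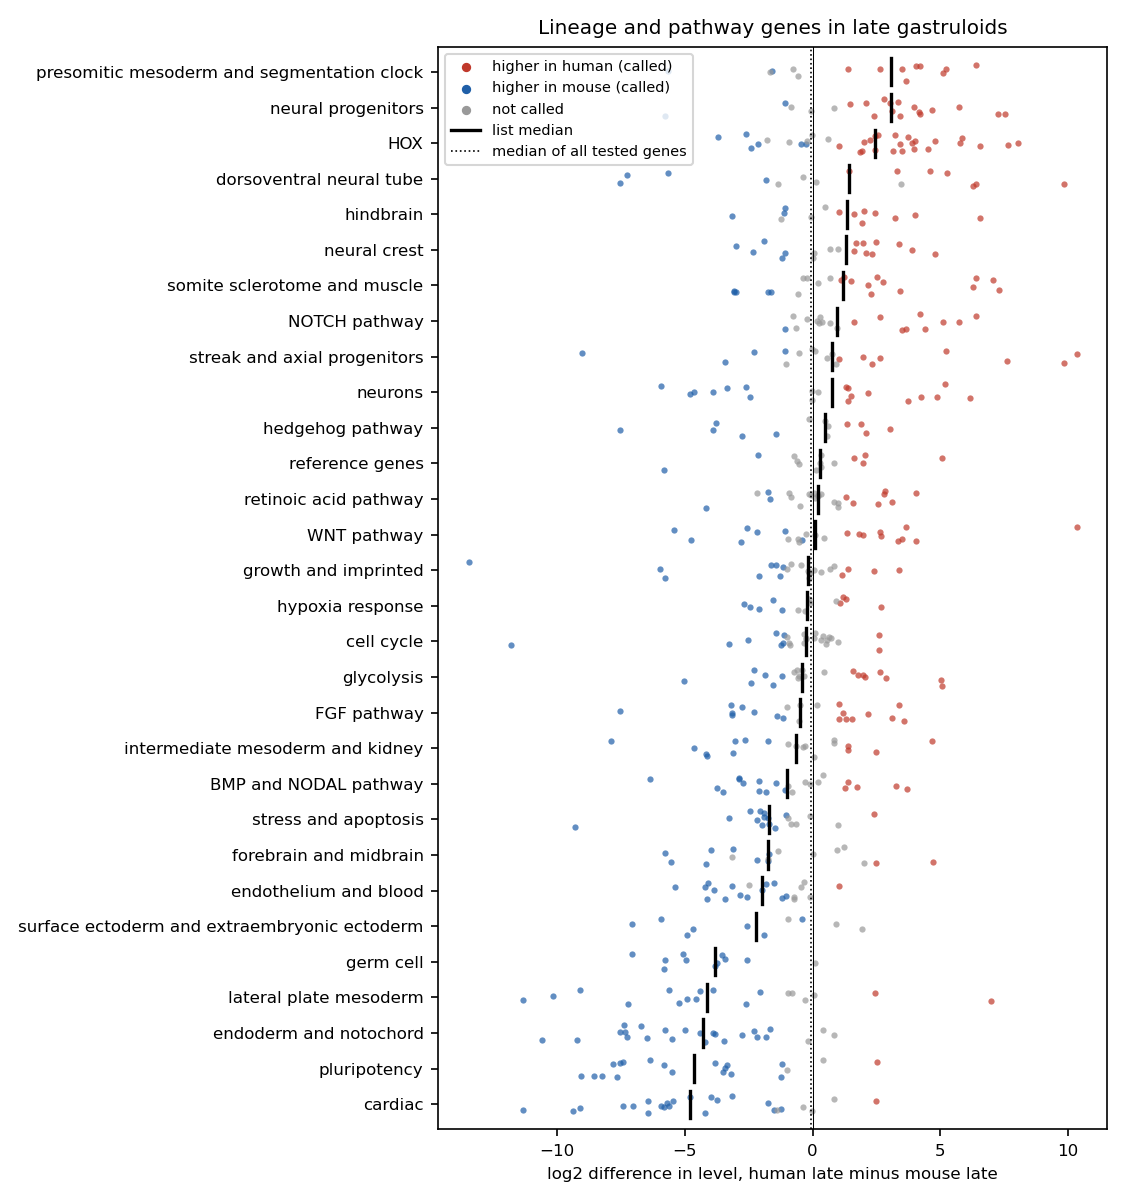
Log2 difference in level between human and mouse late gastruloids (x axis) for the tested genes of each list (rows), 1 point per gene, coloured by call. Genes with no reads in one species are drawn at the limit that 3 counts per library allow. Black bars are list medians, which run from 3.09 for the presomitic mesoderm list to -4.81 for the cardiac list, and the dotted line is the median of all tested genes.

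HOX transcription factors assign identity along the body axis. Their summed level was 4468.7 and 4255 TPM in the human late libraries and 499 and 501 TPM in the mouse ones, so that both human libraries lay above both mouse libraries. The means were 4362 ± 151 and 500.3 ± 1.56 TPM (s.d., n = 2 each), a ratio of 8.72. The exact permutation test over the 4 libraries gave a two-sided p of 0.333, the smallest that 2 against 2 allow. Of 34 tested HOX genes 23 were higher in human and 6 in mouse, beside 26.5% and 27.8% of all tested genes. At least 10 TPM in both replicates was reached by 25 of the 39 HOX genes in human and by 13 in mouse. Among all 15225 matched genes it was reached by 8064 in human and 8327 in mouse.

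The difference was uneven along the clusters. Paralogue groups 1 to 3 were higher in human for all 8 genes, with a median log2 difference of 2.24. Groups 4 to 6 were higher in human for 8 of 10 genes, and groups 7 to 9 for 7 of 9. The terminal groups 10 to 13 ran the other way, with 0 genes higher in human and 4 higher in mouse of 7 tested. These terminal genes were weak in both species, and their sum was 2.58 ± 1.34 TPM in human and 12.8 ± 1.22 TPM in mouse (s.d., n = 2). HOXA13, a terminal gene that marks the caudal end of the axis, had no reads in either human library and 3.34 and 2.25 TPM in mouse, a level at least 13.01-fold higher against the limit of 3 counts per library.

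HOXB9, a trunk-level gene, dominated the human total. It was at 2056 and 2006 TPM in human and at 11.0 and 11.9 TPM in mouse, a log2 difference of 7.65 ± 0.13 (s.e., adjusted p = 2.8e-33). HOXB9 alone supplied 46.6% of the human HOX total, and ranked at the 99.7th percentile of matched genes in human and at the 46.1th in mouse. HOXD4 was at 163 and 142 TPM in human and at 0.800 and 0.406 TPM in mouse, where it rested on 7 reads, giving a ratio of 253 with a counting interval from 123 to 628. In mouse 52.3% of the exon bases of HOXD4 and 62.8% of those of HOXD3 are shared with another annotated gene, so reads there could be left uncounted. HOXB1, a hindbrain gene that responds directly to RA, was at 284 and 258 TPM in human and at 18.5 and 19.9 TPM in mouse.

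HOXB4 was the HOX gene closest between species, at 98.2 and 81.4 TPM in human and 119 and 117 TPM in mouse. Both mouse values lay above the human ones, but the fitted difference of -0.20 ± 0.13 did not pass the test (adjusted p = 0.16). Only HOXA4 and HOXD9 exceeded 10 TPM in mouse while being called lower in human. HOXA4 was at 4.28 and 3.77 TPM in human and at 28.1 and 21.4 TPM in mouse, and HOXD9 was at 7.55 and 4.29 against 30.0 and 34.2 TPM. In both genes the mouse values lay above the human ones, as they did for 46.1% of all matched genes.

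**Figure D2:**
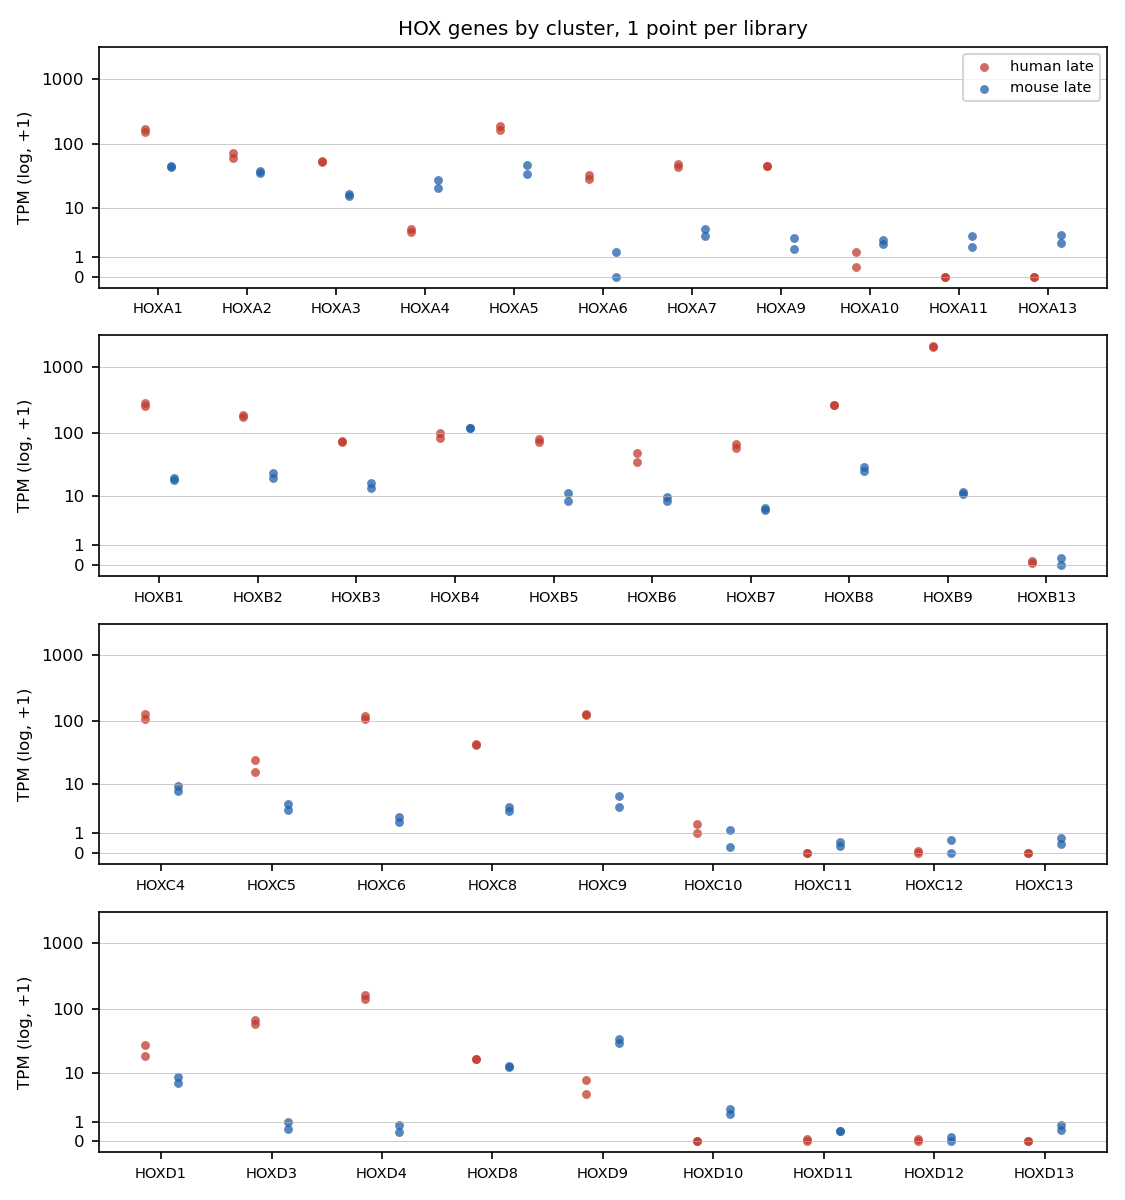
Levels of the 39 HOX genes in each late library, by cluster from group 1 (left) to group 13 (right). The y axis is TPM on a log scale after adding 1, with 1 point per library. Human points lie above mouse points up to group 9 apart from HOXA4, HOXB4 and HOXD9, and at 1.80 TPM or less from group 10 onwards, where mouse points lie at up to 3.34 TPM.

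RA had been added to the human gastruloids alone. The RA pathway list covers retinol carriers and enzymes that make RA, receptors, enzymes that degrade RA and genes that respond to it. Of 24 tested members 7 were higher in human, 3 in mouse and 14 were not called, with a median log2 difference of 0.20. Among carriers, CRABP2, which delivers RA to nuclear receptors, was at 5832 and 4939.8 TPM in human and at 352 and 376 TPM in mouse. Its log2 difference was 4.07 ± 0.11 (adjusted p = 7.7e-28), and it made up 77.6% of the human list total and 19.1% of the mouse one. DHRS3, a reductase that returns retinal to retinol, was at 86.4 and 71.0 TPM in human and at 9.34 and 11.5 TPM in mouse.

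RDH10 and ALDH1A2, enzymes of RA synthesis, were among the 3 members higher in mouse. RDH10, which oxidizes retinol to retinal, was at 7.78 and 9.03 TPM in human and at 176 and 164 TPM in mouse (log2 difference -4.18 ± 0.13, adjusted p = 6.8e-26). ALDH1A2, the main RA-synthesizing enzyme of somites, was at 65.8 and 71.3 TPM in human and at 271 and 246 TPM in mouse (-1.74 ± 0.10, adjusted p = 7.8e-18). Mouse values of both enzymes lay above every human value, as they did for 46.1% of all matched genes. The ALDH1A2 call depended on the length correction, and without it the log2 difference was -0.07.

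CYP26A1, which degrades RA, was at 65.5 and 40.9 TPM in human and at 60.4 and 55.9 TPM in mouse, and the human values spanned the mouse ones (fitted difference 0.09 ± 0.16, adjusted p = 0.59, and -0.09 on the scale of the printed TPM). RARB, a receptor gene that is itself induced by RA, was at 12.9 and 14.3 TPM in human and at 13.2 and 13.5 TPM in mouse (0.20 ± 0.16, adjusted p = 0.24). MEIS2, a HOX cofactor, was at 104 and 110.0 TPM against 124 and 129.5 TPM (-0.07 ± 0.10, adjusted p = 0.51). For each of these 3 genes, 2 s.e. either side of the estimate stayed within 1 log2 unit.

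CYP26A1 and RARB are shown here because both human genes carry a direct repeat of the hexamer bound by retinoid receptors with a spacer of 5 bases (DR5) within 300 bases upstream of their canonical transcript. The hexamer searched was AGGTCA, with its variants written as AGTTCA for the third base, as GGGTCA for the first and as GGTTCA for both, on both strands, and capitals mark the hexamers in the sequences, which are written on the forward strand. The human CYP26A1 stretch (GRCh38 chr10:93073783-93073839) lies within the annotated span of the gene, chr10:93073475-93077885, and upstream of its canonical transcript. The mouse stretch (GRCm39 chr19:37686204-37686240) ends at the base before the gene, chr19:37686241-37689984. The RARB stretch (GRCh38 chr3:25428190-25428246) lies inside the long span of the gene, chr3:24687887-25597932, upstream of the canonical start.
CYP26A1, human: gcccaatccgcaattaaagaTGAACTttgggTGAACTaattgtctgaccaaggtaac
Cyp26a1, mouse: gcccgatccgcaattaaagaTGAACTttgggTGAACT
RARB, human: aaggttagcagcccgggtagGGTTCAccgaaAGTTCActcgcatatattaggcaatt

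The hexamers of CYP26A1 are on the reverse strand, where they read AGTTCA, and 36 of the 37 bases that can be compared are identical in human and mouse. A DR5 was found in 9 of 15225 human windows (0.0591%) and in 15 of 15225 mouse windows (0.0985%). In the RA list it was found in 2 of 25 human genes and in 1 of 25 mouse genes. No HOX window held one in either species, and a repeat with a spacer of 2 bases was found in 17 human and 18 mouse windows, none of them in the RA or HOX lists. The match is a description of these letters in this window.

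Posterior progenitor genes were split. Of 19 tested genes of the primitive streak and axial progenitors 8 were higher in human and 4 in mouse, with a median log2 difference of 0.76. WNT3A, a WNT ligand of the tail bud and dorsal neural tube, was at 144 and 114 TPM in human and rested on a single read in mouse, giving a ratio of 1513 with a counting interval from 272 to 59778. FGF8, the caudal FGF ligand, was at 9.33 and 11.1 TPM in human and at 55.2 and 55.5 TPM in mouse (-2.28 ± 0.18, adjusted p = 7.3e-14). EOMES, a factor of streak and endoderm, rested on a single read in human and was at 30.6 and 33.0 TPM in mouse, a ratio of 1038 with a counting interval from 186 to 40981. CDX2, a caudal regulator upstream of HOX genes, was at 32.7 and 34.4 TPM in human and at 19.6 and 20.4 TPM in mouse, and its difference of 0.92 ± 0.15 stayed under the fold threshold, but was 1.39 and called without length correction. Brachyury, whose symbol differs between the annotations (TBXT and T) and which was therefore not matched, was at 3.10 and 0.963 TPM in human and at 21.0 and 23.8 TPM in mouse.

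In the presomitic mesoderm and segmentation clock list 9 of 14 tested genes were higher in human and 2 in mouse, and the median log2 difference was 3.09. LFNG, a glycosyltransferase that modulates NOTCH in the clock, was at 167 and 129.7 TPM in human and at 2.45 and 1.43 TPM in mouse (6.39 ± 0.23, adjusted p = 3.3e-24). HEYL, a NOTCH target, was at 20.8 and 15.99 against 1.20 and 1.05 TPM. SNAI1, which drives the change from epithelial to mesenchymal cells, went the other way, with 17.0 and 12.6 TPM in human and 52.9 and 52.8 TPM in mouse. The human level of this list had been far higher at the early stage, where its sum was 6520 ± 74.4 TPM, against 454 ± 68.1 TPM at the late stage and 176 ± 6.21 TPM in late mouse gastruloids (s.d., n = 2).

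Somite genes reached totals that were close but did not overlap, through different members. The sum over 24 genes was 1320 ± 13.3 TPM in human and 1465 ± 10.1 TPM in mouse (s.d., n = 2), and of 22 tested genes 12 were higher in human and 5 in mouse. TWIST1, a mesenchymal factor, made up 41.9% of the mouse sum, at 597 and 631 TPM against 69.6 and 66.3 TPM in human (-2.99 ± 0.12, adjusted p = 8.7e-23). PAX3, a factor of the dermomyotome and the dorsal neural tube, was at 151 and 154 TPM in human and at 1.91 and 2.13 TPM in mouse (6.42 ± 0.16, adjusted p = 1.3e-28). The myogenic factor MYF6 was at 59.6 and 70.6 TPM in human and rested on 2 reads in mouse, a ratio of 154 with a counting interval from 42.5 to 1268. UNCX, a marker of the caudal part of somites, was at 36.0 and 26.6 TPM in human and rested on 3 mouse reads, a ratio of 139 with a counting interval from 47.5 to 674. FOXC2, a factor of paraxial mesoderm, was near-equal at 81.9 and 84.0 against 103 and 115 TPM (-0.22 ± 0.12, adjusted p = 0.091).

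Neural progenitor genes had the largest share of human-side calls of any lineage list, 15 of 20. The neural progenitor sum was 3342 ± 71.4 TPM in human and 967 ± 1.59 TPM in mouse (s.d., n = 2). SFRP2, a secreted WNT modulator, was the most abundant member in human at 23.4%, and DLK1, a NOTCH ligand-like protein, in mouse at 33.4%. The human sum was higher in primed RUES2-GLR cells, at 5870 and 6102 TPM, and lower in early gastruloids, at 1452 and 1453 TPM. The mouse sum was 1128.5 and 1140 TPM in EpiLCs, 1158 and 1174 TPM in early gastruloids and 1552 and 1475 TPM in naive ESCs. A human excess was thus present at the primed baselines, was far smaller between early gastruloids and was wide again at the late stage. Changes from the primed baselines differed towards human for 8 genes of the list and towards mouse for 6. SOX2, which maintains both pluripotent and neural progenitor cells, was at 599 and 622 TPM in human and at 141 and 120.0 TPM in mouse (2.39 ± 0.09, adjusted p = 6.6e-23). SOX1, a more selective neural progenitor factor, was at 32.6 and 38.5 against 2.05 and 2.23 TPM (4.22 ± 0.21, adjusted p = 1.2e-19). PAX6, expressed in the neural tube, was at 22.8 and 23.5 against 4.07 and 3.33 TPM (2.81 ± 0.14, adjusted p = 1.1e-19). ZIC2 was at 341 and 325 against 41.7 and 45.3 TPM, and the adhesion molecule NCAM1 at 97.0 and 101 against 27.0 and 25.3 TPM. Both human values of these 5 genes lay above both mouse values, as they did for 36.7% of all matched genes.

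The exceptions in the neural progenitor list were DLK1 and POU3F1. DLK1 was at 5.39 and 4.87 TPM in human and at 320.4 and 325 TPM in mouse (-5.77 ± 0.14, adjusted p = 2.6e-29). Its expression is not restricted to neural cells. POU3F1 was at 4.61 and 4.74 against 11.4 and 11.0 TPM.

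Of 15 tested genes of the dorsoventral neural tube list 7 were higher in human and 4 in mouse, with a median log2 difference of 1.44. OLIG3, a dorsal progenitor factor also expressed in mesoderm, was at 449 and 418 TPM in human and rested on 4 reads in mouse, a ratio of 839 with a counting interval from 328 to 3081. SHH, the ligand secreted by floor plate, notochord and endoderm, was at 0.171 and 0 TPM in human and at 28.0 and 27.1 TPM in mouse. FOXA2, expressed in the same tissues, was at 0.247 and 0.184 against 43.8 and 43.5 TPM. SHH and FOXA2 each rested on 4 human reads, and the ratios were 322 (counting interval 126 to 1180.4) and 202 (78.9 to 741). IRX3, an intermediate neural tube factor, was at 147 and 124 against 190.2 and 206 TPM and was not called.

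Of 20 tested neuronal genes 10 were higher in human and 7 in mouse. NEUROG2, a proneural factor, was at 55.1 and 48.7 TPM in human and had no mouse reads, so that it was at least 72.0-fold higher in human. The sensory neuron factor POU4F1 was at 41.9 and 42.2 against 1.01 and 1.67 TPM. ISL1, a factor of motor neurons, heart progenitors and pharyngeal cells, had no human reads and was at 24.3 and 22.5 TPM in mouse, at least 60.6-fold higher. LHX1, found in interneurons and intermediate mesoderm, was at 1.46 and 0.919 against 39.1 and 35.0 TPM.

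Forebrain and midbrain genes, of which 2 of 17 tested were higher in human and 8 in mouse, were low in both groups, with sums of 13.4 ± 0.771 TPM in human and 50.7 ± 0.423 TPM in mouse (s.d., n = 2). The exception was OTX2, an anterior and epiblast factor, at 0.396 and 0.295 TPM in human and 24.8 and 22.8 TPM in mouse. In the hindbrain list, which includes the anterior HOX genes, 8 of 14 tested were higher in human and 3 in mouse. Of the neural crest list 9 of 18 were higher in human and 5 in mouse. Its sum was the other way, at 443 ± 20.1 TPM in human and 1001 ± 28.3 TPM in mouse (s.d., n = 2), with TWIST1 at 61.3% of the mouse sum. The changes from the primed baselines differed towards human for 3 crest genes and towards mouse for 8. FOXD3, a factor of crest and of pluripotent cells, was at 26.8 and 28.2 against 2.03 and 4.12 TPM, while SOX9, which also marks cartilage and other progenitors, was at 23.5 and 30.7 against 29.8 and 28.0 TPM and was not called (0.06 ± 0.16, adjusted p = 0.74, and -0.12 on the scale of the printed TPM).

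The heart list showed the reverse pattern. Its summed level was 70.6 and 67.8 TPM in human and 1069.6 and 1079.4 TPM in mouse, with no overlap. HAND1, a factor of lateral plate, first heart field and extraembryonic mesoderm, was the top mouse member at 353 and 356 TPM. It had no reads in either human late library, which made it at least 554-fold higher in mouse, whereas another human library of the series held 105.5 TPM. GATA6, a factor of heart and endoderm, was at 1.77 and 1.45 TPM in human and at 110.4 and 107 TPM in mouse (-5.83 ± 0.19, adjusted p = 3.9e-25). TNNT2, cardiac troponin T, had no human reads and was at 25.3 and 25.2 TPM in mouse, at least 169.8-fold higher. No other human library held more than 0.403 TPM of it. In all, 7 of the 28 cardiac genes were without reads in both human libraries and 1 in both mouse libraries. Among all 15225 matched genes these counts were 907 and 883.

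NEBL, a Z-disc protein, was the only called cardiac gene higher in human, at 13.3 and 18.2 against 2.69 and 3.66 TPM (2.48 ± 0.16, adjusted p = 6.7e-17). ACTC1, an actin of heart and of early skeletal muscle, was at 34.0 and 28.0 against 35.3 and 38.1 TPM and was 1 of the 4 tested cardiac genes that were not called (-0.03 ± 0.17, adjusted p = 0.86).

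The lateral plate, endothelial and blood, and intermediate mesoderm lists also had more genes higher in mouse than in human. Of 18 lateral plate genes tested 12 were higher in mouse and 2 in human, and the sums were 544 ± 73.9 and 1568 ± 23.5 TPM (s.d., n = 2). HAND2, a limb and heart factor, rested on a single human read and was at 166 and 182 TPM in mouse, a ratio of 5584 with a counting interval from 1002 to 220569. COL1A2, a fibrillar collagen, was at 239 and 214 TPM in human and at 2.09 and 1.93 TPM in mouse, against the direction of the list. IRX1 was near-equal, at 126 and 82.7 against 116 and 114 TPM.

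Of 21 endothelial and blood genes tested 14 were higher in mouse. The endothelial junction genes CLDN5 and CDH5 were at 2.42 and 1.17 against 94.9 and 97.3 TPM and at 2.47 and 1.65 against 43.9 and 48.7 TPM. LMO2, a haematopoietic and endothelial cofactor, was at 16.1 and 15.6 against 21.3 and 16.6 TPM and was not called. In the intermediate mesoderm and kidney list 8 of 19 were higher in mouse and 4 in human. SIX2, a nephron progenitor and mesenchymal factor, was at 1.73 and 0.227 TPM in human and at 351 and 342 TPM in mouse, and supplied 46.2% of the mouse list total. SALL1 was at 107 and 116 against 121 and 120.2 TPM (0.06 ± 0.09, adjusted p = 0.54, and -0.11 on the scale of the printed TPM).

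Endodermal and epithelial genes were among those furthest on the mouse side. The list summed to 221 and 185 TPM in human and to 3238 and 3297 TPM in mouse. CDH1, epithelial cadherin, was at 0.0738 and 0.0825 TPM in the human libraries, 3 reads in all, and at 152 and 148 TPM in the mouse ones, a ratio of 1914 with a counting interval from 655 to 9280.3. In primed cells CDH1 was at 478 TPM in human and 789 TPM in mouse, so the gene was countable in both species. SPINK1, a protease inhibitor of gut epithelium, had no human reads and was at 475 and 490.5 TPM in mouse, at least 604-fold higher. SOX17, a factor of endoderm, endothelium and germ cells, was at 1.43 and 1.496 against 23.2 and 23.8 TPM (-3.82 ± 0.25, adjusted p = 2.4e-16). KRT19 was near-equal at 23.5 and 18.7 against 30.2 and 25.2 TPM. Of 10 tested genes of surface and extraembryonic ectoderm 7 were higher in mouse, among them GRHL3, an epithelial factor, at 0.473 and 0.470 against 14.5 and 13.5 TPM.

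Of 20 tested pluripotency genes 17 were higher in mouse and 1 in human, with sums of 443 ± 17.9 and 1456 ± 16.04 TPM (s.d., n = 2). The median log2 difference was -6.09 as fitted and -4.66 with the 4 genes that had no human reads placed at their limit. NANOG, a core pluripotency and germ cell factor, had no human reads and was at 77.0 and 75.6 TPM in mouse, at least 378-fold higher. POU5F1 was at 0.625 and 1.05 TPM in human and at 156 and 150.3 TPM in mouse (-7.44 ± 0.18, adjusted p = 2.5e-29). The exception, DPPA4, was at 75.9 and 81.3 TPM in human and at 16.2 and 14.4 TPM in mouse, and SALL4 was at 113 and 122 against 101 and 95.3 TPM.

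In the germ cell list 10 of 11 tested genes were higher in mouse and 0 in human. The mouse sum was lower in late gastruloids, at 344 ± 0.511 TPM, than in naive ESCs, the starting cells (521 ± 28.7 TPM). It was 143 ± 0.426 TPM in EpiLCs and 474 ± 2.37 TPM in early gastruloids. The human sum was 98.7 ± 4.07 TPM in primed cells, 62.2 ± 4.05 TPM in early and 42.0 ± 4.81 TPM in late gastruloids (s.d., n = 2). PRDM1, a regulator of germ cell specification that other epithelia and the endoderm also express, was at 1.13 and 1.19 TPM in human and at 177 and 179 TPM in mouse (-7.08 ± 0.16, adjusted p = 4e-30), and made up 51.8% of the mouse list total. DPPA3 had no human reads and was at 57.1 and 55.7 TPM in mouse, at least 57.0-fold higher. KIT, a receptor also found in neural crest and blood, was near-equal at 31.8 and 38.3 against 37.1 and 36.8 TPM. Which cells of the mouse aggregates carried these transcripts was not tested.

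In the WNT list 10 of 23 genes were higher in human and 7 in mouse. NOTUM, an extracellular WNT inhibitor that WNT signalling induces, was at 34.0 and 25.6 against 2.35 and 1.74 TPM. SFRP5, a secreted WNT antagonist, was at 1.19 and 1.598 against 70.0 and 63.0 TPM, and the target gene NKD1 was near-equal at 49.2 and 49.4 against 51.4 and 53.3 TPM, although without length correction its log2 difference was 1.85 and called.

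In the FGF list 9 of 21 were higher in human and 8 in mouse. The receptor FGFR4 was at 93.8 and 67.6 against 7.85 and 7.61 TPM. The ligand FGF10 was at 3.01 and 2.59 against 28.5 and 31.6 TPM, and the feedback inhibitor IL17RD was near-equal at 43.3 and 51.7 against 48.4 and 46.4 TPM.

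BMP and NODAL genes leaned to mouse, with 11 of 22 higher in mouse and 5 in human. The ligand NODAL was at 0.323 and 0.721 against 40.7 and 48.0 TPM. The activin antagonist FST was at 64.3 and 69.6 against 7.40 and 8.48 TPM, and ID3, a direct BMP target, was near-equal at 413 and 344 against 385 and 361 TPM.

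Of 13 tested hedgehog genes 4 were higher in human, 5 were higher in mouse and 4 were not called. GLI1, a transcriptional target and read-out of the pathway, was at 1.67 and 1.87 TPM in human and at 29.1 and 30.7 TPM in mouse (-3.91 ± 0.21, adjusted p = 1e-18). The co-receptors GAS1 and BOC, which active hedgehog signalling represses, were at 901 and 865 against 125 and 116 TPM and at 127 and 98.6 against 32.8 and 27.2 TPM. SUFU, an intracellular inhibitor, was at 42.5 and 38.4 against 50.03 and 51.6 TPM and was not called. Of the 19 NOTCH pathway genes 9 were higher in human and 1 in mouse. HES5, a NOTCH target of neural progenitors, was at 40.8 and 35.2 TPM in human and rested on 4 mouse reads, a ratio of 48.4 with a counting interval from 18.9 to 178. HES6 was near-equal at 95.3 and 73.1 against 85.0 and 87.1 TPM.

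Changes from primed cells to late gastruloids were then compared, since a difference that a gene shows at every stage of a species cancels in them. In mouse these set late gastruloids against EpiLCs, which were not the cells aggregated. Rises and falls there are differences between stages and not a course from the starting cells. The primed RUES2-GLR libraries held 14196716 and 3681739 reads and the EpiLC libraries 6667575 and 15050982. In human 17.5% of tested genes rose and 21.2% fell, and in mouse 21.6% rose and 17.4% fell. The 2 changes differed by the same thresholds in 44.1% of tested genes, 19.4% towards human and 24.7% towards mouse. The split depended on the scaling, since on the scale of the printed TPM 72.8% of the human calls were rises against 45.2% as fitted, and 65.1% of the differences in change were towards human against 43.9%. Mitochondrial transcripts took 21.4% and 22.4% of reads in the primed RUES2-GLR libraries and 1.73% and 1.75% in the mouse EpiLC libraries, and their part in these changes was not tested.

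Of 34 tested HOX genes 28 rose and 0 fell in human, 29 rose and 2 fell in mouse, and 27 rose in both. The 2 that fell in mouse were HOXC13 and HOXD13, both of the terminal groups. As 38 of the 39 HOX genes had no reads in the primed cells of one species or the other, the sizes of their rises could not be compared. The summed HOX level could nevertheless be given for each stage. It was 0.293 ± 0.0264 TPM in primed RUES2-GLR cells, 2913 ± 101 TPM in early and 4362 ± 151 TPM in late human gastruloids. In mouse it was 49.6 ± 11.1 TPM in naive ESCs, from which the gastruloids were made, and 12.6 ± 0.987 TPM in EpiLCs. It was 20.7 ± 0.368 TPM in early and 500.3 ± 1.56 TPM in late mouse gastruloids (s.d., n = 2 each).

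Of 20 tested pluripotency genes 18 fell and 0 rose in human, and 13 fell and 2 rose in mouse. The changes differed towards mouse for 13 genes and towards human for 1. The list sum did not show this, since it went from 2624 ± 156 to 443 ± 17.9 TPM in human and from 9100 ± 246 to 1456 ± 16.04 TPM in mouse (s.d., n = 2). For POU5F1 the log2 change was -10.30 ± 0.16 in human and -3.53 ± 0.09 in mouse, a difference of -6.78 ± 0.22 (adjusted p = 5.9e-25). CDH1 changed by -13.05 ± 0.19 in human and by -2.46 ± 0.09 in mouse. SOX2 changed by -1.96 ± 0.09 in human, from 1546 TPM in primed cells, and by -1.19 ± 0.10 in mouse, from 287 TPM in EpiLCs. The difference between these changes, -0.77 ± 0.13, stayed under the fold threshold.

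Endodermal genes moved apart against the primed baselines. In human 15 of 24 tested fell and 2 rose, whereas in mouse 17 rose and 4 fell, and for 10 genes the changes were called in opposite directions. The list summed to 7582 ± 372 TPM in primed human cells, 4316 ± 12.9 TPM in early and 203 ± 25.9 TPM in late human gastruloids (s.d., n = 2). The mouse sums were 2679 ± 41.8 TPM in EpiLCs, 6597 ± 111 TPM in early and 3268 ± 41.5 TPM in late gastruloids. Naive mouse ESCs, from which the gastruloids were made, summed to 3643 ± 96.0 TPM, which is above the late sum. Cardiac genes rose in mouse for 20 of 25 tested and in human for 6, and 13 of 25 changes differed towards mouse with 0 towards human. Early human gastruloids held a larger cardiac sum, 174 ± 18.1 TPM, than primed cells (36.6 ± 5.42 TPM) or late human gastruloids (69.2 ± 1.95 TPM).

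**Figure D3:**
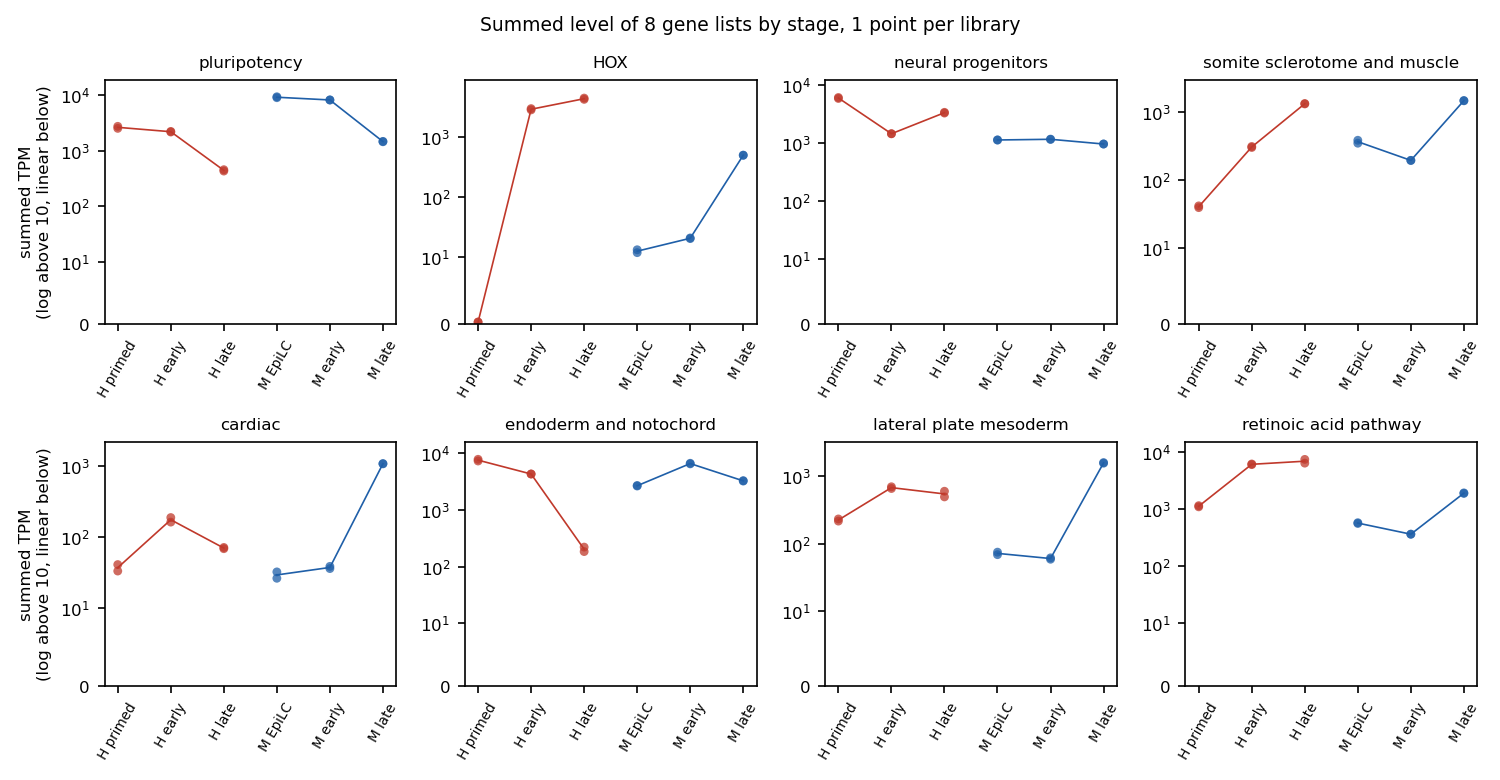
Summed TPM of 8 gene lists in primed cells (EpiLCs in mouse), early and late gastruloids, 1 point per library, with lines joining the means of each species (H, human; M, mouse). EpiLCs were not the starting cells of the mouse gastruloids. The y axis is linear below 10 TPM and logarithmic above. HOX sums reached 2913 TPM in early human gastruloids and 20.7 TPM in early mouse gastruloids, and the endoderm and notochord sum fell to 203 TPM in late human gastruloids.

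**Figure D4:**
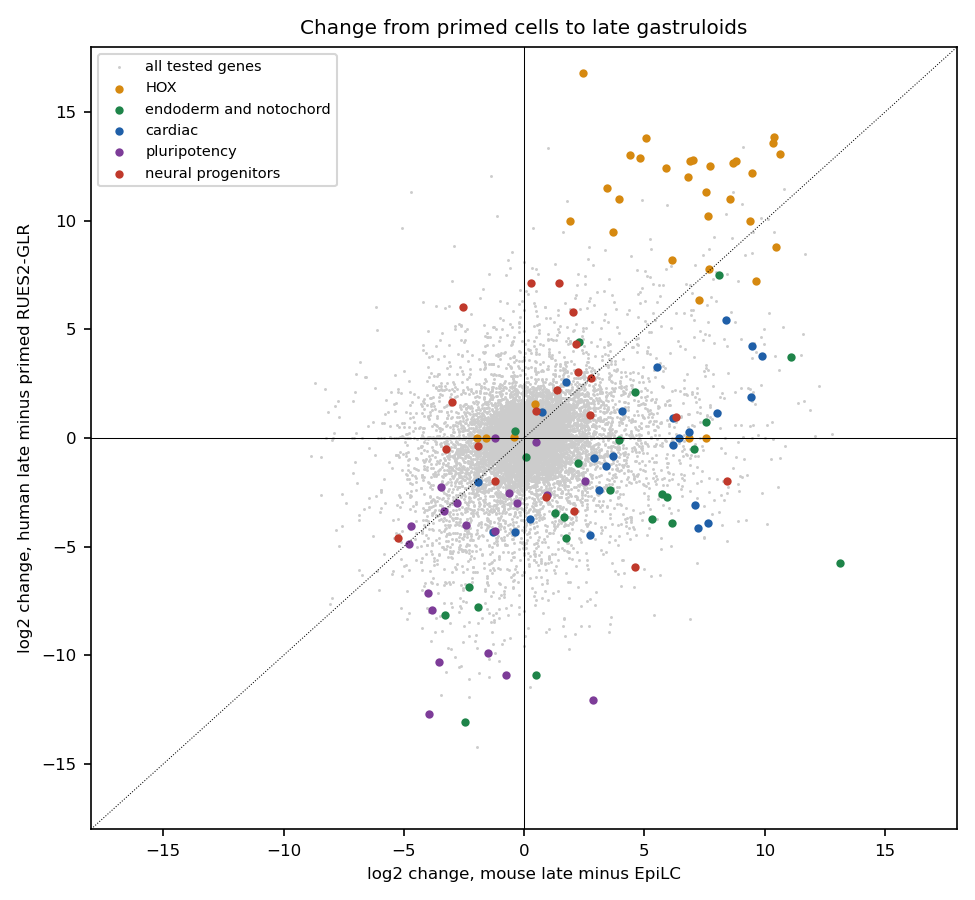
Log2 change from primed cells to late gastruloids in mouse (x axis) and human (y axis) for all tested genes (grey) and 5 lists, with equal change on the dotted line. Values of genes without reads in one stage depend on the small count added by the fit. HOX genes lie mainly in the upper right, pluripotency genes mainly in the lower left, and endoderm genes mainly in the lower right.

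The baseline levels of CYP26A1 were far apart. It was at 243 TPM in primed RUES2-GLR cells and 0.338 TPM in EpiLCs, which were not the cells aggregated in mouse. Against these baselines its late level was lower by 2.75 ± 0.14 on the log2 scale in human and higher by 7.21 ± 0.38 in mouse. FRZB, a secreted WNT antagonist, was at 109 TPM in primed human cells, 0.255 TPM in EpiLCs, with log2 changes of -1.98 ± 0.12 and 8.45 ± 0.27. CRABP2 rose in both, by 2.99 ± 0.11 from 444 TPM in human and by 1.94 ± 0.12 from 91.3 TPM in mouse. The difference of 1.04 ± 0.15 was called, but fell to 0.87 without human replicate 1 and to 0.996 without mouse replicate 1, both under the threshold. It also fell under the threshold with DESeq2 size factors (0.986), with upper quartile normalization (0.958) and with at least 10 counts in each late library (0.984). Against early gastruloids in place of primed cells the difference reversed, to -3.74 for CRABP2 and to 4.66 for SOX2.

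Of all lists, the cell cycle list had the largest share of genes that were not called, 16 of 25 tested. In it 2 were higher in human and 7 in mouse, and the sums were 5695 ± 106 and 5683 ± 66.9 TPM (s.d., n = 2). MCM3, a replication helicase subunit, was at 421 and 379 against 436 and 431 TPM (0.06 ± 0.09, adjusted p = 0.51, and -0.11 on the scale of the printed TPM). CDKN1A, a cell cycle inhibitor, was at 13.6 and 16.2 against 160.0 and 158 TPM (-3.26 ± 0.12, adjusted p = 1.3e-23). Stress genes leaned to mouse, with 12 of 18 higher in mouse and 1 in human. This was not particular to the late stage. Their mean sum was 6134 TPM in naive mouse ESCs, 5776 in EpiLCs, 5209 in early and 4011 in late mouse gastruloids. In human it was 2129 TPM in primed RUES2-GLR cells, 2597 in early and 1611 in late gastruloids. The median difference in log2 change from primed cells was 0.07. In the glycolysis list 8 of 21 were higher in human and 6 in mouse, in the hypoxia list 4 and 5 of 14, and in the list of growth and imprinted genes 4 and 8 of 23. IGF2, a growth factor, was at 961 and 985 against 108 and 102 TPM. Among 14 reference genes 8 were not called, 4 were higher in human and 2 in mouse, with the elongation factor EEF2 at 6417 and 5196 against 5938 and 5909 TPM (0.15 ± 0.09, adjusted p = 0.13, and -0.03 on the scale of the printed TPM).

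Some of the widest gaps belonged to genes that every cell uses, and these differed at all stages. GAPDH, a glycolytic enzyme, was at 5169 and 4365 TPM in human and 152 and 165 TPM in mouse, and in no other mouse library did it exceed 257 TPM. RPL24, a ribosomal protein, was at 1621 and 1549.8 against 1.83 and 3.49 TPM, with at most 3.88 TPM in any other mouse library. CDC42, a small GTPase, was at 0.248 and 0.411 TPM in human and at 613 and 585 TPM in mouse, with at most 0.702 TPM in any other human library. Their changes from primed cells did not differ by more than the threshold, at 0.68 ± 0.13, 0.31 ± 0.54 and -0.47 ± 0.34, although the GAPDH value was 1.23 on the scale of the printed TPM. Reads matching several places in the genome or several genes were taken as not counted, from the stated default settings. Levels of genes with near-identical copies or with exons shared with another gene are therefore uncertain as comparisons between species. Shared exons took 42.8% of the human exon bases of ALDOA, 49.3% of ASNS, 51.0% of PEG3 and 21.7% of SDHA, all of which were far higher in mouse. Their levels were 31.2 against 1172, 0.365 against 263, 0 against 1268 and 5.44 against 356 TPM.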

How the data were processed

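Polyadenylated RNA was sequenced from 18 samples, 2 per group. Per the study's methods and the labels, the authors demultiplexed reads with bcl2fastq 2.20, trimmed them with Trimmomatic 0.39, used STAR for alignment (GRCh38 for human, GRCm39 for mouse) and obtained reads per gene from featureCounts at default settings. These settings were taken here to mean counting without strand and without reads that map to several places or genes. The deposited values are raw counts per gene with the length of its exons. STAR and featureCounts versions and the annotation release are not given in the sources used here. Genes were joined to GENCODE by identifier, which found 44876 of 44910 human and 29486 of 29720 mouse genes.

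edgeR 4.0.16 (R 4.3.3) was fitted to 14 libraries in 7 groups, which left 7 residual degrees of freedom, with gene length offsets, library totals of length-scaled counts and TMM factors. Fitted differences are therefore not on the scale of the TPM values, which sum to the same total in every library. Lengths differed by 1.5 times or more in 39.9% of matched genes. The biological coefficient of variation was 6.99%. On simulated data for the late comparison (13360 genes), 200 of 200 changed genes were recovered with 0 false calls. All other genes were simulated at equal levels in both late groups, and every gene with the same spread between replicates. In the data 54.3% of tested genes were called, so the simulation cannot show how the fit performs there. DESeq2 1.42.0, other scalings, filters, baselines, a replicate block and left-out libraries were alternatives. Standard errors are the log2 difference over the root of the F statistic. Counting intervals are exact 95% Poisson intervals on the reads of the lower group, and limits for genes without reads use 3 counts per library. Both cover counting error only.

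Named genes were, for each list, the 2 called genes of largest difference in each direction (no overlap, 10 TPM or more in the higher species) and the closest gene at 10 TPM or more in all 4 libraries, the 5 largest in each direction over all genes (50 TPM or more), genes named by the study and any HOX gene. RARB, SFRP2 and NNAT were chosen after their values were seen. Members and lists were chosen with earlier results of these data known, and 12 list symbols had no match. Sequences were read from GRCh38 and GRCm39, upstream of GENCODE canonical transcripts. Replicates of each group differed by more than counting noise. Not every gene that the rule names is reported here.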

Additional observations from a re-analysis of the deposited data

Results flagged for a closer look

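The change from primed cells to late gastruloids ran in opposite directions in the 2 species, with both changes and the difference between them called by edgeR, for 9 of the named genes that had more than 3 reads in at least 1 library of each of the 4 groups. Many named genes were chosen by their late level difference, which also enters these changes, so this count is not a rate. The baselines were unlike, since the mouse gastruloids were not made from EpiLCs. The difference in log2 change, human minus mouse, was -10.56 for DLK1, -8.30 for SOX17, -8.07 for SFRP5, -5.71 for GLI1, -5.29 for KRT19, -5.09 for CLDN5 and -4.79 for GRHL3, all of which fell in human and rose in mouse. It was 8.53 for SOX1 and 3.19 for HES6, which rose in human and fell in mouse. Adjusted p-values of these differences ran from 1.2e-32 for DLK1 to 5.1e-12 for CLDN5 and 3.1e-11 for GRHL3. Over all tested genes 815 of 13576 were called in opposite directions, where neither the read limit nor a call on the difference was required. With early gastruloids as the baseline the CLDN5 difference was -1.30 and did not pass the test (adjusted p = 0.16). Against primed cells it was -5.89 without human replicate 1.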

How the results depend on the processing

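The number of genes called stayed within 1.5 times that of the analysis as reported except in the following cases. For the late level difference, 7366 genes were called as reported, 4036 among the 8137 genes of similar length and 4158 with a log2 threshold of 2. For the difference in change, 5985 were called as reported, 3731 among genes of similar length and 3081 with a log2 threshold of 2. For late against primed cells, the human count of 5251 became 3280 with at least 10 counts in each late library, 9643 on the adjusted p alone and 2397 with a log2 threshold of 2. The mouse count of 5296 became 9555 and 2687 under the last 2 settings. Leaving out 1 late library in turn gave 7195 to 7407 genes for level, 5834 to 6056 for change, 5088 to 5364 for human and 5082 to 5387 for mouse, with the lone library of a group assumed to vary like the other groups.

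Other scalings moved the median of all genes in the human change from 0.11 to -0.02 with upper quartile normalization, where 38.3% of calls were rises, to 0.0097 and 40.6% with DESeq2 size factors, and to 0.32 with totals of length-scaled counts and no TMM factors, where 55.9% of calls were rises against 45.2% as reported, and to 0.72 and 72.8% on the scale of the printed TPM, an alternative chosen after seeing the data. On the latter scale the median difference in change was 0.61 against 0.06. With early gastruloids as the baseline instead of primed cells, the difference in change was reversed for SOX2 (4.66), CRABP2 (-3.74) and CDKN2A (-4.84). No called level difference of a named gene changed sign under any alternative run, but 17 of the 28 named genes that were not called did so under at least 1, among them CYP26A1 (-0.39 without human replicate 1), ACTC1 (0.29), SOX9 (-0.18) and LMO2 (0.16), the last 3 without length correction. Calls were lost without length correction for ALDH1A2, LMO4, EGFL7 and TFRC, under several settings for EGFL7, and without human replicate 2 for BNIP3L. Calls were gained without length correction for CDX2 (1.39), NKD1 (1.85) and FRZB (-1.29), and on the scale of the printed TPM for FRZB (-1.01). The call on the difference in change of CRABP2 was lost with DESeq2 size factors (0.986), upper quartile normalization (0.958), at least 10 counts in each late library (0.984) and 2 left-out libraries. The log2 HOX ratio was 3.12 as reported and ranged from 2.97 to 3.16 with totals of all genes, with TMM factors applied to the TPM, without length correction and over the left-out libraries. It is a ratio of TPM sums and not on the scale of the fitted differences. The Spearman correlation of ranks was 0.792 with and 0.829 without length correction.

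Replicate numbers did not pair the libraries, as the deviations of same-numbered late libraries had a correlation of -0.03 between species. With a replicate block, 7358 genes were called for level, 5954 for change, 5245 for human and 5282 for mouse, and no named call changed. Among genes with under 5% shared exon bases, an alternative chosen after seeing the data, 4911 of 9207 were called for level. Some called level differences moved by more than 1.5 times in either direction when 1 library was left out, and all of those given here kept their direction and their call. Without human replicate 1 the log2 difference was -10.31 for SIX2, -6.21 for CLDN5, -10.82 for SHH, -11.20 for EOMES, -13.09 for HAND2, -5.76 for NODAL and -2.77 for HOXD9. Without mouse replicate 1 it was 13.01 for WNT3A, 10.92 for UNCX and 8.65 for HOXD4, and without mouse replicate 2 it was 9.59 for WNT3A and 6.25 for UNCX. Depth limits genes near 0, whose fitted differences depend on the small count added by the fit.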

Other observations

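Sums of other lists across stages gave the following values (mean ± s.d., n = 2). The NOTCH pathway list was at 743 ± 3.85 TPM in primed RUES2-GLR cells, 2753 ± 28.2 TPM in early and 971 ± 103 TPM in late human gastruloids, against 754 ± 22.6, 578 ± 5.81 and 544 ± 12.1 TPM in EpiLCs, early and late mouse gastruloids. In naive mouse ESCs, the starting cells, it was at 295 ± 6.40 TPM. The hypoxia list was at 8526 ± 10.9 TPM in early human gastruloids and at 1159 ± 30.6 TPM in late ones, and at 2543 ± 13.1 and 1323 ± 0.629 TPM in mouse. The list of growth and imprinted genes was at 5071 ± 71.2 TPM in late human and 8344 ± 123 TPM in late mouse gastruloids. It was at 2203 ± 90.6 TPM in primed human cells, 2049 ± 34.2 TPM in EpiLCs and 1023 ± 6.09 TPM in naive mouse ESCs. NNAT, an imprinted gene of neural tissue chosen after its values were seen, was the most abundant member in both late groups, at 23.5% of the human and 18.3% of the mouse sum.

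Brachyury peaked at the early stage in both species, at 222 and 228 TPM in early human and 358 and 351 TPM in early mouse gastruloids. Of 273 list genes at 10 TPM or more in late human gastruloids, 5 were more than 1.5 times higher in replicate 1 and 1 in replicate 2. The mouse counts were 3 and 1 of 312.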
